A study of Mus musculus with 4 samples.

Results

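The heat shock and cytosolic chaperone genes described here were 38 genes listed by name, without a rule on measured values but with earlier results of these data known, of 40092 genes in the count table. They comprise heat shock transcription factors, the HSP70 and HSP110 chaperones with their J protein and BAG partners, HSP90 with its cochaperones, small heat shock proteins, mitochondrial chaperones, and subunits of the chaperonin TRiC/CCT. All 38 were found once on a main chromosome, and 36 had enough counts to be tested. The RNA-seq libraries came from AT2 cells, the surfactant-producing cells of the lung alveolus that also act as its stem cells, 14 days after bleomycin, a drug that injures the alveolar epithelium. The 2 Ctrl libraries carried Alkbh5flox/+; Sftpc-CreERT2; Rosa26-mTmG and the 2 A5-CKO libraries Alkbh5flox/flox; Sftpc-CreERT2; Rosa26-mTmG. Every mouse received tamoxifen, so Cre, driven by the Sftpc promoter, also removed 1 Alkbh5 allele in Ctrl cells, and the reporter turned recombined cells green for sorting. The comparison asks how these genes stood in injured AT2 cells that had lost both alleles of Alkbh5, an enzyme that takes methyl groups off adenosines in RNA. The labels do not say whether a library was a single mouse or a pool, so the p-values measure the spread between these libraries only.

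Chaperones hold proteins in a foldable state. HSP70 binds short stretches of unfolded chain and is loaded by J proteins and unloaded by HSP110 and BAG proteins, HSP90 completes the folding of kinases and steroid receptors with the help of cochaperones, and the CCT ring encloses actin and tubulin. When unfolded protein accumulates, the transcription factor HSF1 trimerizes and binds heat shock elements, arrays of the unit GAA in alternating orientation, in the promoters of the inducible members. Constitutive members such as Hspa8 and Hsp90ab1 are abundant in most cells without stress.

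The promoter sequences are shown for the letters that HSF1 is known to read. Of the 38 genes, 31 had promoter windows from 250 bases before to 50 bases after the start (RefSeq, GRCm38.p6). None was available for Hsf1, Hspa8, Hspa9, Hsp90aa1, Hsp90ab1, Cryab and Cct4. The motif of 3 units, GAANNTTCNNGAA, searched on both strands, was found in 5 of the 31 genes (16.1%), against 179 of 27025 genes of the whole promoter table (0.662%). The shorter motif of 2 units, GAANNTTC, which reads the same on both strands and lies within the longer motif, was found in 14 of the 31 (45.2%), against 9.04% of all genes. A match describes letters only, and units with a mismatch were not counted, so a gene without a match may still answer to HSF1. Dnajb1, which HSF1 induces, had neither motif, and Bag3, Hspa1a, Hspa1b and Hspb1 held only the shorter one. Capitals mark the motif, with overlapping matches joined, and each sequence is written 5′ to 3′ on the strand of its gene.
Hspe1 (chr1:55088053-55088082, plus strand): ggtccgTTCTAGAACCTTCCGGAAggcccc
Hspd1 (chr1:55088053-55088082, minus strand): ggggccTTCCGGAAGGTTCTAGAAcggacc
Dnajb6 (chr5:29735844-29735872, plus strand): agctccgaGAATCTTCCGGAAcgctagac
Hsph1 (chr5:149636280-149636308, minus strand): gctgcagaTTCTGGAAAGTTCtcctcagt
Chordc1 (chr9:18292260-18292288, plus strand): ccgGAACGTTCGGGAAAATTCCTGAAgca
The 2-unit matches of Fkbp4, the gene with the smallest p, and of the inducible pair Hspa1a and Hspa1b are shown for comparison.
Fkbp4 (chr6:128438789-128438818, minus strand): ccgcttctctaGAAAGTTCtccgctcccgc
Hspa1a (chr17:34972242-34972271, minus strand): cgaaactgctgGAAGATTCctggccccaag
Hspa1b (chr17:34959324-34959353, minus strand): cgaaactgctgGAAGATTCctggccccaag
Hspe1 and Hspd1, the co-chaperonin and the chaperonin of mitochondria, are divergent neighbours, and the same 30 bases lie in both promoter windows, read from opposite strands. The printed stretches of Hspa1a and Hspa1b were identical.

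The libraries held 18144865 to 20811757 counts, and 3 counts, taken as the floor of detection, corresponded to 0.128 to 0.177 normalized counts (CPM, counts relative to a library size scaled with edgeR's TMM factors). This floor covers counting error only. Values per library follow the order replicate 1, replicate 2 within Ctrl and then within A5-CKO. Adjusted p-values come from the quasi-likelihood test of edgeR, adjusted by the Benjamini-Hochberg method over all genes tested. Alkbh5 had 81.7 and 152 CPM in the Ctrl libraries against 19.3 and 36.6 in the A5-CKO libraries (log2 fold change -2.06, adjusted p = 0.528), so both A5-CKO libraries were below both Ctrl libraries, as labelled. AT2 markers identified the cells in every library, yet their summed level (8 genes) was 48296, 70198, 36391 and 29555 CPM in the same order, lower in both A5-CKO libraries. Club cell markers (4 genes) summed to 2868, 2733, 1962 and 1318 CPM, also lower in both A5-CKO libraries. Macrophage and leukocyte markers (9 genes) summed to 13104, 14990, 9046 and 8527 CPM, nearly all from Lyz2, which AT2 cells also express. The other 8 summed to 786, 162, 218 and 1038 CPM and overlapped between genotypes, and 6 of the 9 had positive log2 fold changes (median 0.37). Ptprc, the leukocyte marker CD45, was higher in both A5-CKO libraries, with 50.9 and 22.5 CPM in Ctrl against 84.3 and 82.8. Fibroblast markers (6 genes) summed to 393, 145, 93.2 and 1014 CPM. B and plasma cell markers (5 genes) summed to 2106, 345, 497 and 2286 CPM. Markers of AT2 cells in transition (5 genes) summed to 2260, 1063, 1458 and 2401 CPM. In each of these lists Ctrl 1 and A5-CKO 2 were above Ctrl 2 and A5-CKO 1. In a bulk sample, fewer cells of a type and less RNA per cell cannot be told apart.

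None of the 36 tested chaperone genes passed an adjusted p of 0.05 in edgeR, where the share over all 16661 genes was also 0%. DESeq2 with its default filtering called 0.385% of all genes and 0 of these, with a smallest adjusted p of 0.112, for Fkbp4. At an unadjusted p under 0.05, 1 of the 36 was lower in A5-CKO (Fkbp4, 2.78%) and 0 were higher, against 4.71% and 4.48% of all genes. Both shares were under those of all genes. They rest on 1 gene and 0 genes, too few to tell the set from the background. On the lower side the order was reversed once GC and transcript length were adjusted for, as described below (16.7%, against 4.93% of all genes). The log2 fold changes were negative for 25 genes and positive for 11, with a median of -0.16, against -0.02 over all genes.

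The A5-CKO libraries were both lower than either Ctrl library in 12 of the 36 genes (33.3%), against 23.5% of all genes. Both lay above in 4 genes (11.1%), against 20.3%. The balance between the directions depended on the scaling. With total counts only, 8 genes lay above (22.2%) and 2 below (5.56%), against 34.8% and 10.1% of all genes, and the median of the chaperone genes was 0.15. This scaling moved the median of all genes to 0.30, so that the chaperone genes stood 0.14 below all genes with TMM factors and 0.15 below with total counts. All 8 AT2 markers had negative log2 fold changes, with a median of -0.89, and the part of the marker levels in these counts was not tested. Separation of 2 against 2 libraries carries no p below 0.333 in a two-sided permutation test.

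**Figure D1:**
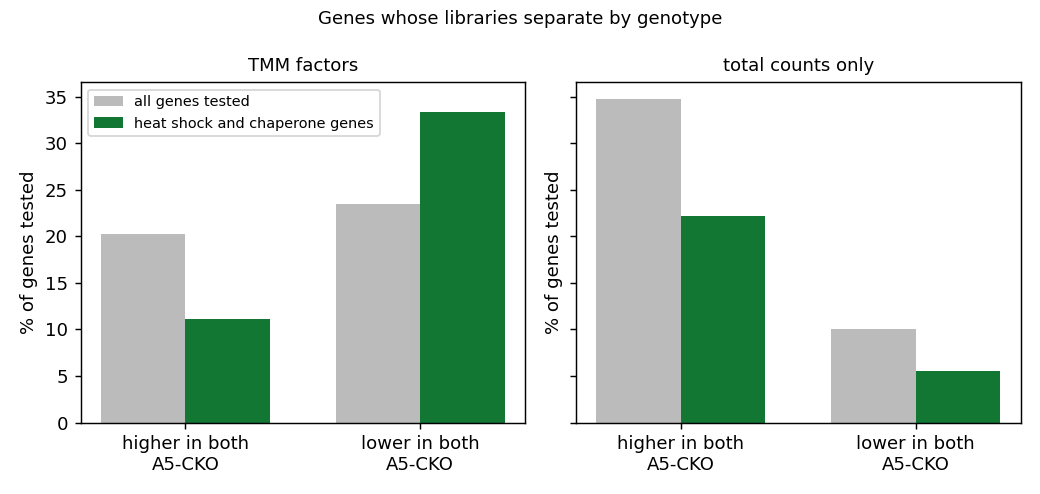
Share of tested genes (y axis, percent) whose 2 A5-CKO libraries both lay above or both lay below the 2 Ctrl libraries, for all 16661 genes (grey) and the 36 chaperone genes (green), with TMM factors (left) and total counts only (right). With TMM factors the chaperone share was under that of all genes on the higher side and over it on the lower side, and with total counts it was under that of all genes on both sides.

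Ctrl 1 stood apart from the other libraries in these genes. It had the highest CPM of the 4 libraries in 23 of the 36 genes (63.9%), against 23.6% of all genes tested. Ctrl 2 was the highest in 3 and the lowest in 13. The median deviation of the 36 genes from their own mean on the log2 scale was 0.23 and -0.14 for the Ctrl libraries against -0.06 and -0.07 for the A5-CKO libraries. By this median, Ctrl 1 and Ctrl 2 lay farther apart than Ctrl 2 and either A5-CKO library. The marker sums of fibroblasts, B and plasma cells and transitional cells were also higher in Ctrl 1 than in Ctrl 2. They were likewise higher in A5-CKO 2 than in A5-CKO 1, whose chaperone medians were nearly equal. The part of these markers in the chaperone levels was not tested. Without Ctrl 1 the median fold change of the chaperone genes turned to 0.15 (0.11 over all genes), and without Ctrl 2 it was -0.34 (0.06 over all genes). With 1 Ctrl library, separation is easier to reach. Without Ctrl 1, 17 of 37 genes lay above (45.9%, against 38.5% of all genes) and 10 below (27%, against 35.6%), and without Ctrl 2, 4 lay above (10.8%, against 35.2%) and 27 below (73%, against 34.9%). The summed level of all 38 genes was 8574 and 6610 CPM in the Ctrl libraries against 6058 and 6088 in the A5-CKO libraries.

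**Figure D2:**
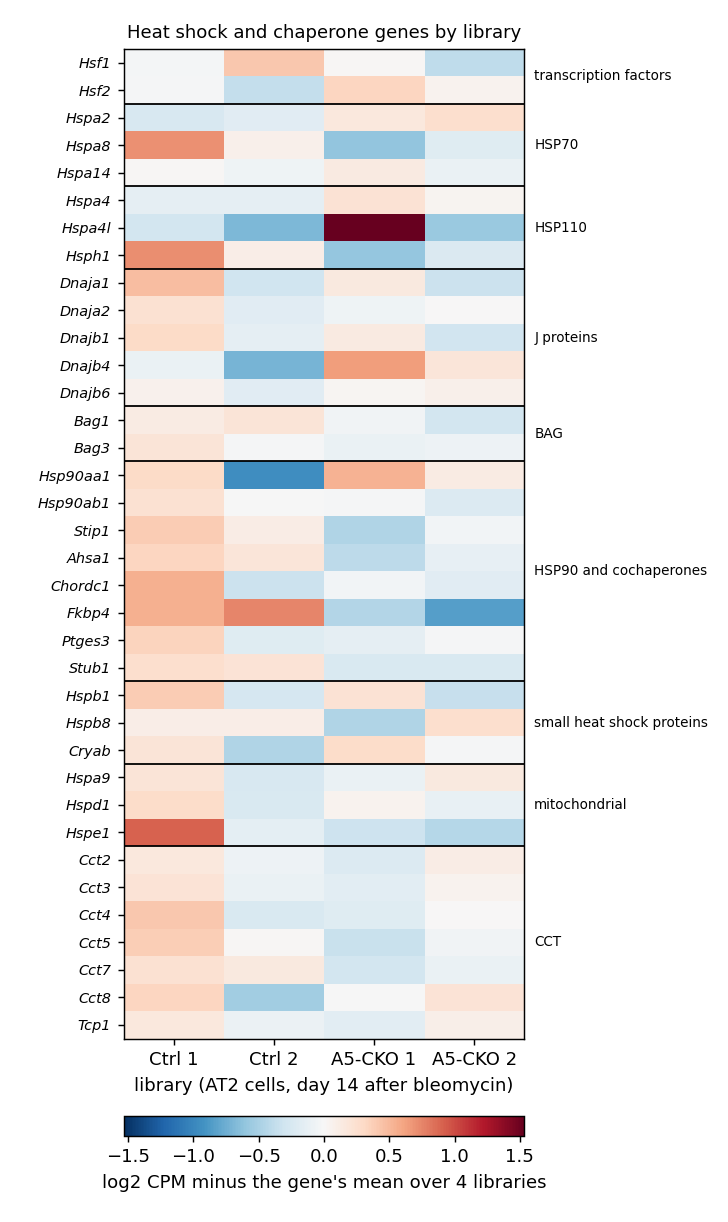
Each row is 1 of the 36 tested genes, grouped by role, and each column 1 library; colour gives log2 CPM minus the mean of that gene over the 4 libraries, from blue (lower) to red (higher). The Ctrl 1 column is mostly red, as it was the highest library in 23 genes, and the darkest cell is Hspa4l in A5-CKO 1 at 1.53.

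Among the transcription factors, Hsf1, the main activator of the heat shock response, had 39.1 and 53.1 CPM in the Ctrl libraries against 40.5 and 30.4 in the A5-CKO libraries. The genotypes overlapped, with a log2 fold change of -0.38 (standard error, SE, of 0.33, adjusted p = 0.697), which was -0.05 with total counts and -0.19 without Ctrl 2. Hsf2, a partner of Hsf1 that also acts in development, had 11.8 and 9.19 CPM in Ctrl against 15.03 and 12.3 in A5-CKO, higher in both A5-CKO libraries by a narrow margin. Its log2 fold change of 0.38 (SE 0.42, adjusted p = 0.752) was 0.17 without Ctrl 2 and turned to -0.23 after a correction for GC content and transcript length.

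Hspa8, the constitutive HSP70 of the cytosol, had 692 CPM per kilobase of its principal transcript in Ctrl and 397 in A5-CKO. Hsp90ab1 had 484 and 415, so the order of these 2 most abundant members differed between the genotype means. Only A5-CKO 1 held fewer Hspa8 than Hsp90ab1 counts (ratio 0.729, against 1.11 in A5-CKO 2, 1.52 in Ctrl 1 and 1.17 in Ctrl 2). Hspa8 levels were 2007 and 1307 CPM in the Ctrl libraries against 813 and 1086 in the A5-CKO libraries. Both A5-CKO libraries were lower, although the gap between the 2 Ctrl libraries was wider than that between Ctrl 2 and A5-CKO 2. Fitted, this came to -0.80 on the log2 scale (SE 0.40, adjusted p = 0.543), -0.40 without Ctrl 1 and -1.12 without Ctrl 2. Small nucleolar RNA genes lie within Hspa8 (chromosome 9, 40801276 to 40805202), and the strand and overlap settings of the counting are not stated. Hspa2, an HSP70 best known from the testis, went the other way at a low level, with 7.69 and 8.09 CPM in Ctrl against 10.2 and 10.9 in A5-CKO (log2 fold change 0.42, adjusted p = 0.737, and 0.74 with total counts). Hspa14, an HSP70 relative that works at the ribosome, had a log2 fold change of 0.05.

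The stress-inducible HSP70 genes Hspa1a and Hspa1b were near the floor. Hspa1a had 6, 6, 36 and 4 raw counts in the 4 libraries, and Hspa1b had 2, 0, 10 and 0. Neither was tested. The transcripts of the pair are nearly identical in part: 47.1% of the 100-base windows of Hspa1a and 49.9% of those of Hspa1b occurred unchanged in the other gene, and reads from such stretches are lost when only unique alignments are kept. These counts are therefore uncertain as levels.

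The HSP110 genes encode nucleotide exchange factors that reset HSP70. Hspa4 had 143.45 and 143.47 CPM in the Ctrl libraries against 183 and 162 in the A5-CKO libraries, higher in both A5-CKO libraries (log2 fold change 0.27, SE 0.29, adjusted p = 0.749). The value was 0.04 with the GC and length correction, 0.58 with total counts and 0.17 without A5-CKO 1. Hsph1, the inducible HSP110 with the 3-unit motif shown above, had 45.1 and 29.4 CPM in Ctrl against 18.2 and 23.6 in A5-CKO, lower in both. Its log2 fold change was -0.83 (SE 0.37, adjusted p = 0.528), and -0.43 without Ctrl 1. Hspa4l, a relative best known from the testis, had 11, 8, 56 and 12 raw counts, so its log2 fold change of 1.44 (SE 0.94, adjusted p = 0.602) came from A5-CKO 1 alone.

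A5-CKO 1 was the highest library for Hspa1a, Hspa1b and Hspa4l, and also for a list of 15 immediate early genes that dissociation of tissue is known to switch on. That list summed to 5053 and 8601 CPM in the Ctrl libraries against 14500 and 4717 in the A5-CKO libraries, so A5-CKO 2 was the lowest library. At an unadjusted p under 0.05 in edgeR, 3 of its genes were higher in A5-CKO (20%, against 4.48% of all genes). These were Fosb, Atf3 and Klf6, with 1704, 1148 and 814 CPM in A5-CKO 1 against 190, 135 and 285 in A5-CKO 2. The part of dissociation in these levels was not tested. Of the other genes, Hsp90aa1, Cryab and Dnajb4 were also highest in A5-CKO 1, whereas Hsph1 was lowest there and Hspb1 was highest in Ctrl 1. Over the 36 tested genes, A5-CKO 1 was the highest library in 7 (19.4%, against 27.8% of all genes). It was the lowest in 11 (30.6%, against 25.6%). Dnajb1, the J protein that HSF1 induces, had 112 and 83.1 CPM in Ctrl against 101 and 74.5 in A5-CKO.

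**Figure D3:**
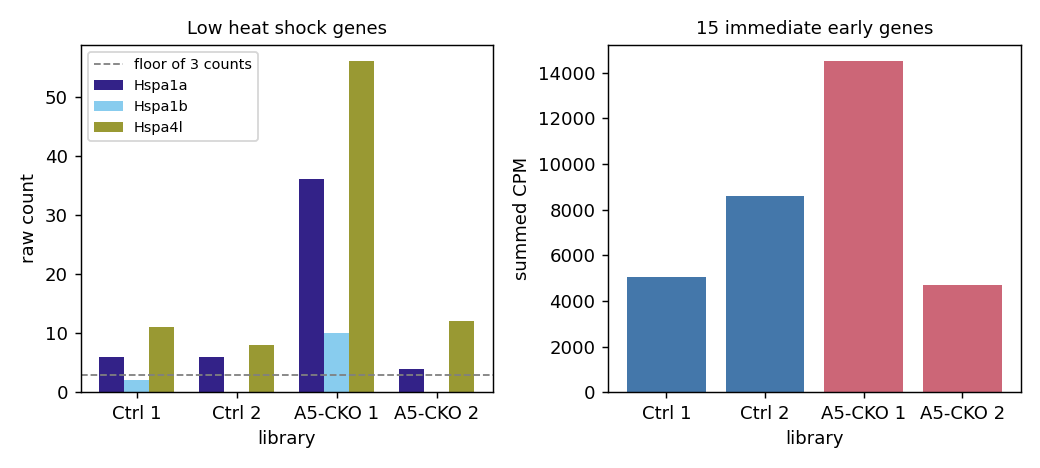
Left, raw counts (y axis) of Hspa1a, Hspa1b and Hspa4l in each library, with the floor of 3 counts as a dashed line. Right, summed CPM of 15 immediate early genes in each library, Ctrl in blue and A5-CKO in red; A5-CKO 1 is the highest library in both panels, at 56 counts for Hspa4l and 14500 CPM.

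J proteins bring clients to HSP70 and start its ATP cycle. Dnajb4, a cytosolic J protein with a client range like that of Dnajb1, had 43.3 and 28.3 CPM in the Ctrl libraries against 72.7 and 53.0 in the A5-CKO libraries. It was the chaperone gene with the smallest p on the higher side, with a log2 fold change of 0.81 (SE 0.35, adjusted p = 0.528). Its unadjusted p missed 0.05 here and was under it in 6 of the alternatives with all 4 libraries and without Ctrl 1, and the correction for GC content and length took the log2 fold change to 0.39. Without Ctrl 1 it was 1.20 and without Ctrl 2 it was 0.49. Dnajb4 (chromosome 3, 152181580 to 152210432, GRCm38.p6) overlaps Fubp1, so reads of these genes may be shared. Dnaja1, the J protein with the most counts, had 275 and 161 CPM in Ctrl against 221 and 158 in A5-CKO (log2 fold change -0.20, adjusted p = 0.869, and 0.10 with total counts), with Ctrl 1 the highest and the replicate 2 libraries nearly equal. Dnaja2, Dnajb1 and Dnajb6 lay between -0.16 and 0.10.

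The 2 BAG genes were lower in both A5-CKO libraries by a small margin (100%, against 23.5% of all genes), a share that rests on 2 genes only. Their median was -0.26, and 0.06 with total counts. Bag1, an exchange factor that links HSP70 to the proteasome, had 201 and 212 CPM in Ctrl against 177 and 152 in A5-CKO (log2 fold change -0.33, adjusted p = 0.701), a difference that was -0.0060 with the GC and length correction and -0.011 with total counts. Bag3, which passes HSP70 clients to autophagy and is induced by HSF1, had 95.1 and 82.1 CPM in Ctrl against 77.1 and 78.3 in A5-CKO (log2 fold change -0.19, adjusted p = 0.826). The direction of Bag3 turned with total counts (0.12) and with the GC and length correction (0.07), and was -0.02 without Ctrl 1.

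Of the HSP90 genes and their cochaperones, 5 of 8 were lower in both A5-CKO libraries (62.5%, against 23.5% of all genes) and 0 were higher in both (20.3% of all genes), and the group's median was -0.37 on the log2 scale (-0.06 with total counts). Fkbp4 (chromosome 6, 128430103 to 128438656, GRCm38.p6) encodes FKBP52, a prolyl isomerase that joins HSP90 to steroid receptors. It had 565 and 654 CPM in the Ctrl libraries against 284 and 216 in the A5-CKO libraries, that is 609 ± 63.0 in Ctrl and 250 ± 48.5 in A5-CKO (SD, n = 2 libraries each). Each A5-CKO library was below each Ctrl library by more than the gap within either genotype. The log2 fold change was -1.28 (SE 0.34, adjusted p = 0.528 over all genes in edgeR). The estimate stayed within -1.51 to -1.13 on omission of single libraries, missing an unadjusted p of 0.05 without A5-CKO 2. DESeq2 on the same genes gave an adjusted p of 0.0567. The summed AT2 markers had the same order of the 4 libraries as Fkbp4, highest in Ctrl 2 and lowest in A5-CKO 2, and their part in this difference was not tested.

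The other cochaperones that separated were lower by less. Stip1, the adaptor that passes clients from HSP70 to HSP90, had 139 and 115 CPM in Ctrl against 76.9 and 104 in A5-CKO (log2 fold change -0.50, adjusted p = 0.588). It was -0.29 without Ctrl 1, -0.31 without A5-CKO 1 and -0.76 without A5-CKO 2. Ahsa1, an activator of the HSP90 ATPase, had 90.1 and 81.6 CPM in Ctrl against 54.2 and 65.7 in A5-CKO (log2 fold change -0.52, adjusted p = 0.565). Stub1, the ubiquitin ligase CHIP that marks chaperone clients for degradation, had 199 and 193 CPM in Ctrl against 142 and 142 in A5-CKO (log2 fold change -0.47, adjusted p = 0.586), with replicates that almost coincided. With total counts Stip1 was at -0.18, Ahsa1 at -0.20 and Stub1 at -0.15. The Stub1 value was -0.07 after the correction for GC content and length, and the gene overlaps Jmjd8. Chordc1 and Ptges3, further cochaperones, overlapped between genotypes at -0.28 and -0.18.

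The HSP90 paralogs had log2 fold changes of opposite sign, neither of which passed the test. Hsp90ab1, the constitutive form, had 1320 and 1119 CPM in the Ctrl libraries against 1116 and 976 in the A5-CKO libraries (log2 fold change -0.22, adjusted p = 0.843, 0.09 with total counts and -0.04 without Ctrl 1), and Ctrl 2 and A5-CKO 1 were nearly equal. Hsp90aa1, the inducible form, had 377, 159, 443 and 334 CPM in the same order (log2 fold change 0.54, SE 0.47, adjusted p = 0.692). Ctrl 2 stood below the other 3 libraries, and Ctrl 1 lay between the A5-CKO libraries. Without Ctrl 1 the log2 fold change of Hsp90aa1 was 1.35, a value that rests on Ctrl 2 alone for the Ctrl side. The ratio of Hsp90aa1 to Hsp90ab1 counts was 0.286 and 0.142 in Ctrl against 0.397 and 0.342 in A5-CKO, a ratio that does not depend on library scaling and was higher in both A5-CKO libraries. The ratio of Fkbp4 to Hsp90ab1 counts was 0.428 and 0.584 in Ctrl against 0.255 and 0.221 in A5-CKO, lower in both.

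**Figure D4:**
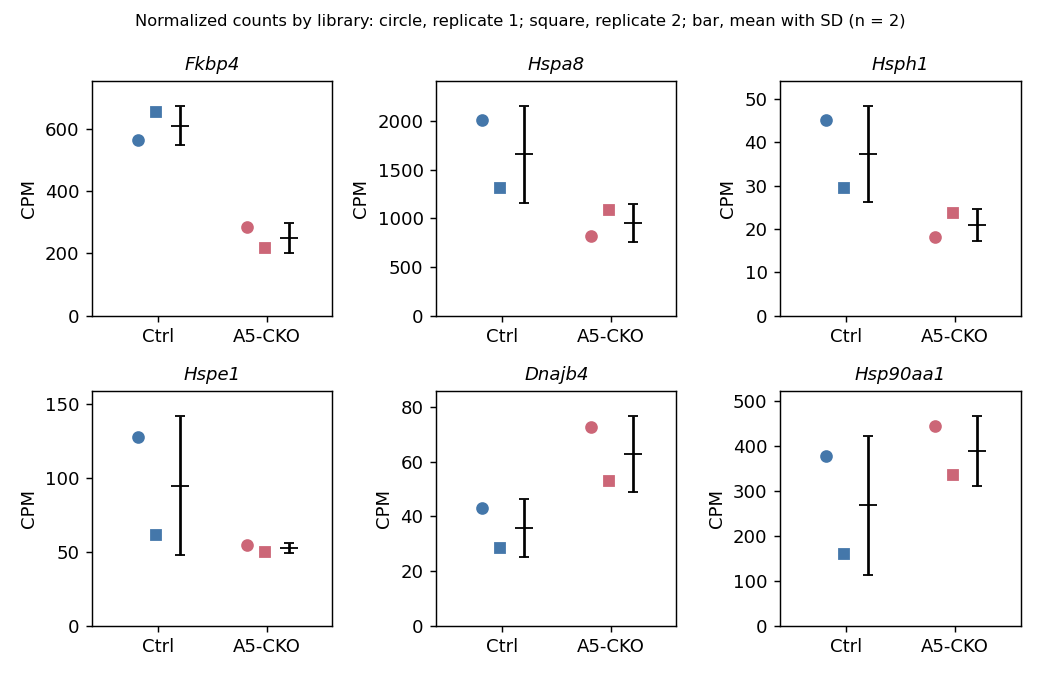
CPM (y axis, from 0) of 6 chaperone genes in each library, Ctrl in blue and A5-CKO in red, circles for replicate 1 and squares for replicate 2; the bars beside the points give the mean and SD of the 2 libraries. Fkbp4, Hspa8, Hsph1 and Hspe1 were lower and Dnajb4 higher in both A5-CKO libraries, while Hsp90aa1 overlapped.

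The small heat shock proteins bind unfolded chains without using ATP. None of the 3 genes separated. Cryab, alpha B-crystallin, had 131 and 82.8 CPM in the Ctrl libraries against 139 and 113 in the A5-CKO libraries (log2 fold change 0.23, adjusted p = 0.828), and its direction turned without Ctrl 2 (-0.11). Hspb1 had 148 and 95.1 CPM in Ctrl against 133 and 88.9 in A5-CKO, so that the replicate 1 libraries of both genotypes were higher than the replicate 2 libraries. Hspb8, the partner of Bag3, had a log2 fold change of -0.16.

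Of the mitochondrial chaperones, Hspa9, the HSP70 of the import motor, had 278 and 204 CPM in Ctrl against 225 and 267 in A5-CKO, with a log2 fold change of 0.03. Hspe1 and Hspd1, which share the printed heat shock element, had unequal log2 fold changes, a difference that was not tested. Hspe1 had 128 and 61.4 CPM in the Ctrl libraries against 55.0 and 50.2 in the A5-CKO libraries, which gave -0.85 as log2 fold change (SE 0.40, adjusted p = 0.528). It was lower in both A5-CKO libraries, but Ctrl 1 alone stood far above the other 3, and without Ctrl 1 the log2 fold change was -0.17. Hspd1 had 140 and 97.9 CPM in Ctrl against 120 and 106 in A5-CKO (log2 fold change -0.07). The ratio of Hspd1 to Hspe1 counts was 1.09 and 1.59 in Ctrl against 2.18 and 2.12 in A5-CKO. The annotated genes overlap by 96 bases, where reads cannot be assigned without strand.

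All 7 CCT genes encode subunits of the same ring and stayed within a narrow range, with log2 fold changes from -0.40 to 0.15 and a median of -0.11, which was 0.21 with total counts. Their summed level was 1465 and 1156 CPM in the Ctrl libraries against 1059 and 1251 in the A5-CKO libraries, so the genotypes overlapped. Cct5 had 262 and 203 CPM in Ctrl against 158 and 194 in A5-CKO (log2 fold change -0.40, adjusted p = 0.663), and Cct7 had 260 and 245 in Ctrl against 183 and 206 in A5-CKO (log2 fold change -0.38, adjusted p = 0.660). These were the 2 subunits that separated, both lower in A5-CKO (28.6%, against 23.5% of all genes). Cct5 was at -0.14 without Ctrl 1 and -0.61 without Ctrl 2, and with total counts Cct5 was at -0.09 and Cct7 at -0.06. The other 5, Cct2, Cct3, Cct4, Cct8 and Tcp1, overlapped between genotypes.

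Per length of the principal transcript, the levels spanned from Hspa8 to Hspa1b. Hspa8 averaged 544 CPM per kilobase over the 4 libraries and Hsp90ab1 449, followed by Fkbp4 with 194, Bag1 with 174 and Hspb1 with 129. The order of the leading pair was not stable, since the ratio of Hspa8 to Hsp90ab1 counts was 1.52, 1.17, 0.729 and 1.11 in the 4 libraries and these transcripts are 2394 and 2520 bases long. At the low end were Hspa1a with 0.211, Hspa4l with 0.110 and Hspa1b with 0.0509 CPM per kilobase.

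**Figure D5:**
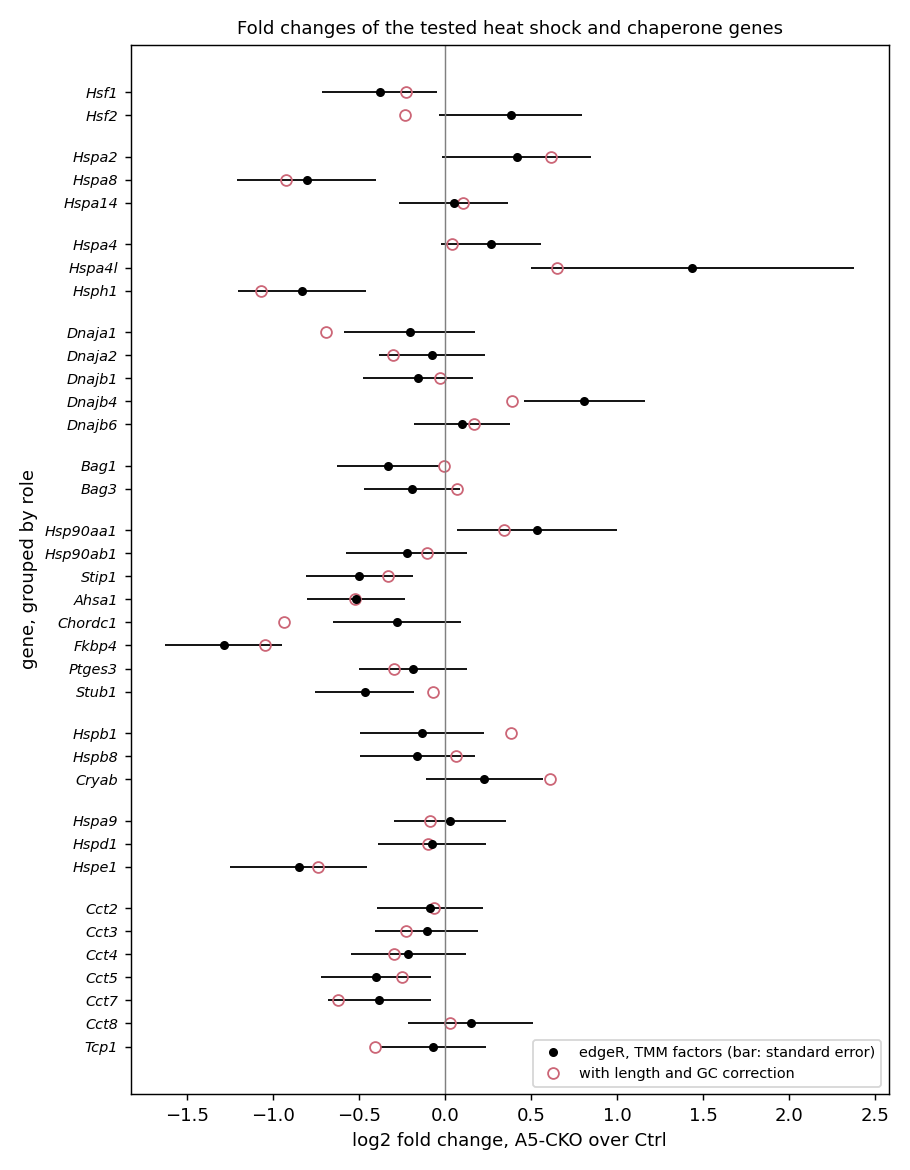
Log2 fold change of A5-CKO over Ctrl (x axis) for each of the 36 tested genes, grouped by role; black points with bars give the edgeR estimate and its SE, and open red circles the estimate after correction for GC content and transcript length. Fkbp4 lies farthest to the left at -1.28, and Hspa4l farthest to the right at 1.44 with the widest bar.

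The correction for GC content and transcript length, chosen after the data were seen, changed the count on the lower side. With it, 6 of the 36 genes (16.7%) were lower in A5-CKO at an unadjusted p under 0.05, against 4.93% of all genes, and 0 were higher, against 2.42%. The 6 genes were Hsph1, with a corrected log2 fold change of -1.07, Fkbp4 with -1.05, Chordc1 with -0.94, Hspa8 with -0.92, Hspe1 with -0.74 and Cct7 with -0.62. None passed the adjusted threshold, with a smallest adjusted p of 0.672, and the median of the 36 genes was -0.10, against -0.08 over all genes. Among these 6, Chordc1, Hsph1 and Hspe1 hold the 3-unit motif, found in 5 of the 31 genes with a promoter window (16.1%). Hspa8 had no promoter window. Dnajb6 and Hspd1, which also hold the motif, had corrected log2 fold changes of 0.17 and -0.095. A link between the motif and the fold changes was not tested.

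Grouped by promoter letters, the 5 genes with the 3-unit motif had log2 fold changes from -0.85 to 0.10 without that correction, negative in 4, with a median of -0.28. The 24 tested genes with a promoter window and no such motif had a median of -0.14, and 17 were negative. They include Dnajb1 and Bag3, which HSF1 induces, so the grouping does not divide the genes by HSF1 control. The ranges of both groups overlapped widely.

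Chaperone genes outside the set were counted as lists. Of 56 further genes of the same pathways, 54 were tested (not Pfdn6 and Bag6). At an unadjusted p under 0.05, 4 were lower in A5-CKO (7.41%, against 4.71% of all genes), 0 were higher, and 0 passed the adjusted threshold in edgeR. Their median stood at -0.21 on the log2 scale (0.11 with total counts), and there were 21 genes lower in both A5-CKO libraries (38.9%, against 23.5% of all genes) and 3 higher in both (5.56%, against 20.3%). Pfdn5, a subunit of prefoldin that hands actin and tubulin to CCT, had 351 and 192 CPM in the Ctrl libraries against 133 and 111 in the A5-CKO libraries (log2 fold change -1.15, adjusted p = 0.528). Fkbp8, a membrane-bound FK506-binding cochaperone of HSP90, had 502 and 358 CPM in Ctrl against 224 and 227 in A5-CKO (log2 fold change -0.93, adjusted p = 0.528). Dnaja4, a J protein related to Dnaja1, had 84.5 and 132 CPM in Ctrl against 60.5 and 59.4 in A5-CKO (log2 fold change -0.85, adjusted p = 0.528). The fourth, Hspbp1, an inhibitor and exchange factor of HSP70, had a log2 fold change of -0.86 (adjusted p = 0.528). All 4 genes separated by genotype.

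Fkbp5, the paralog of Fkbp4 on HSP90 and a textbook target of the glucocorticoid receptor, was sparse, with 49, 28, 2 and 33 raw counts in the 4 libraries (log2 fold change -1.58, adjusted p = 0.629). A5-CKO 1 was under the floor, while A5-CKO 2 lay close to Ctrl 2.

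The 18 chaperones of the endoplasmic reticulum, which answer to other transcription factors than HSF1, were counted for comparison. Their median log2 fold change was -0.40, with 16 negative, 9 lower in both A5-CKO libraries (50%, against 23.5% of all genes), 0 higher in both (20.3% of all genes) and 2 lower at an unadjusted p under 0.05 (11.1%, against 4.71%). Their summed level was 7158 and 7017 CPM in Ctrl against 5910 and 5794 in A5-CKO. With total counts their median was -0.07, against 0.30 over all genes.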

How the data were processed

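RNA-seq of sorted AT2 cells from 2 Ctrl and 2 A5-CKO libraries was used, on day 14. The deposited values are raw counts per gene. Under MeRIP-seq, the Methods name Trim Galore 0.6.10, HISAT2 2.2.1 (mm10.p6), removal of duplicates with sambamba and featureCounts 2.0.3, and these steps were assumed for RNA-seq. Removal of ribosomal RNA reads is given under RNA-seq, beside peak calling. Whether it preceded the counting is not stated. The strand setting is not given in the sources used here, and 16 of the 38 genes overlap another RefSeq gene. Counts without molecular identifiers are not independent molecules, and intervals or floors cover counting error only.

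Counts were fitted with edgeR 4.0.16 in R 4.3.3 (TMM factors 0.933, 0.860, 1.11 and 1.13 for Ctrl 1, Ctrl 2, A5-CKO 1 and A5-CKO 2, filterByExpr, quasi-likelihood test, two-sided) with Benjamini-Hochberg adjustment over 16661 genes. The biological coefficient of variation was 41.6%. Unless another tool is named, every p is from this test, and each standard error is the estimate over the root of its F statistic. The fit was tested on simulated data with known changes, and recovery was required only at a spread between libraries well below the one estimated here. No such requirement was set at the spread of these libraries. Libraries of a genotype differed beyond sampling noise (a chi-square over its degrees of freedom of 120 for Ctrl and 107 for A5-CKO), and each counted as 1 replicate. Across genotypes this value ran from 97.5, for Ctrl 1 and A5-CKO 2, to 154, for Ctrl 2 and A5-CKO 2.

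Alternatives were RLE, upper-quartile or no factors, no filter, at least 10 counts in every library, DESeq2 1.42.0, limma voom (3.58.1), a robust fit, the replicate number as a block, and each library left out. Chosen after seeing the data, GC content and length were corrected with splines of 4 degrees of freedom over 15237 genes (91.5%). The 38 genes and all lists were chosen with earlier results of these data known. Values per library are given for genes with an unadjusted p under 0.05, separated genotypes or the highest mean in their role. Hspa1a, Hspa1b, Hspa4l, Hsp90aa1, Hspd1, Hspb1, Dnajb1, Ptprc, Lyz2 and Fkbp5 were named after their values were seen. Promoters are from RefSeq, and principal transcripts (APPRIS) from GENCODE M21.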

Additional observations from a re-analysis of the deposited data

How the results depend on the processing

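Across the alternatives run, 0 chaperone genes passed the adjusted threshold, including DESeq2 on the same genes. Dnajb4 was the 1 gene higher at an unadjusted p under 0.05 with RLE factors, upper-quartile factors, total counts, at least 10 counts in every library, DESeq2 on the same genes and the robust fit. Total counts gave a median of 0.15, 8 genes higher and 2 lower in both A5-CKO libraries, 0 further chaperone genes lower at unadjusted p, and turned Dnaja1 (0.0956), Bag3 (0.12) and Hsp90ab1 (0.0897). Without a filter Hspa9 turned (-0.00052). The GC and length correction gave 6 genes lower at unadjusted p and turned Hsf2 (-0.23), Bag3 (0.0704) and Hspa9 (-0.0887). The cause of these shifts was not tested.

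Leaving out each library in turn gave 0 to 2 genes higher at unadjusted p (Dnajb4 and Hsp90aa1 without Ctrl 1, Hspa4l without A5-CKO 2). Those lower numbered 0 to 4 (Hspa8, Hsph1, Hspe1 and Fkbp4 without Ctrl 2, 0 without A5-CKO 2). The median ran from -0.34 without Ctrl 2 to 0.15 without Ctrl 1, the genes higher in A5-CKO without overlap from 4 to 17, and the genes lower from 10 to 27. With 1 library on a side, separation is easier: over all genes the higher share was 38.5% without Ctrl 1 (17 chaperone genes) and 35.8% without A5-CKO 2 (9), and the lower share 34.9% without Ctrl 2 (27). Further chaperone genes at unadjusted p numbered 0 to 2 higher (2 without Ctrl 1) and 0 to 4 lower (0 without A5-CKO 1, 1 without A5-CKO 2). The log2 fold change ran from -0.59 to 0.29 for Dnaja1, -0.11 to 0.66 for Cryab and -0.22 to 0.33 for Hspa9.

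Same-numbered libraries did not deviate together from their group means (correlation -0.35). This value cannot show whether the numbers pair the mice. With the replicate block 1 chaperone gene, Fkbp4, stayed lower at unadjusted p (median -0.16), and further chaperone genes at unadjusted p fell from 4 to 1 lower (Pfdn5). Depth limited Hspa1a, Hspa1b, Hspa4l and Fkbp5, whose levels rest on few counts.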
